A study of Arabidopsis thaliana with 4 samples.

Results

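Transcripts of the chloroplast genome of Arabidopsis thaliana were measured here in roots, under a control or a potassium-free nutrient solution. The genes were taken from the run of 160 consecutively numbered array probe sets that holds the organelle genomes. A probe set was kept if the platform table gave it exactly 1 gene and the symbol began with psa, psb, pet, ndh, ycf, rpo, rbcL, accD or clpP. The rule used names only and no measured value. It kept 45 of the 22810 probe sets on the ATH1 array, and all 45 matched a plastid gene of the RefSeq annotation (assembly TAIR10.1). They were 5 genes of photosystem I, 15 of photosystem II, 6 of the cytochrome b6f complex, 10 of the plastid NDH complex, 4 of the plastid RNA polymerase, the photosystem I assembly factors ycf3 and ycf4, and rbcL, accD and clpP.

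Wild-type Col-0 plants were grown in hydroponics for 4 to 5 weeks at 22 °C with a 16 h photoperiod, and total RNA of whole roots was labelled with biotin. Control plants were moved to fresh complete solution, whose potassium came from 0.5 mM KH2PO4 and 1.25 mM KNO3. Starved plants were moved to a solution in which 0.5 mM H3PO4 and 1.25 mM HNO3 took the place of these salts. Roots were collected after 48 h and after 96 h, which gives 4 groups of 1 array each. A difference between 2 single arrays is therefore given as a value with no test, and only the additive model over all 4 arrays gives a p-value.

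The plastid genome encodes core subunits of both photosystems, the cytochrome b6f complex and the NDH complex, the large subunit of Rubisco, and part of the plastid's own RNA polymerase and ribosomes. Most of its genes are transcribed together in long units, by the plastid-encoded polymerase and by phage-type polymerases that the nucleus encodes, and RNA processing and turnover set much of the final transcript level. Root plastids are mainly amyloplasts and leucoplasts, which make starch, fatty acids and amino acids, but roots that receive light can form some chlorophyll. Plastid messengers carry no stable poly(A) tail, so a signal on an array labelled from poly(A) depends on how the RNA was primed. The labels say nothing of that priming step.

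Signals are MAS5 intensities, and each array's mean after trimming 2% at both ends was close to 100 (100.0065 to 100.0075). The 18 hybridisation control probe sets, for RNA added at a fixed amount, were all lowest on the control 96 h array, with medians of 137 and 183 at 48 h and 86.3 and 171 at 96 h (control first). The actin (6 of 6), GAPDH (5 of 5) and ubiquitin (4 of 5) control probe sets were also lowest there. Of 7 root markers, 5 were matched by locus to a single-gene probe set. The summed signal of these 5 was 2049 (control 48 h), 2535 (starved 48 h), 1372 (control 96 h) and 1983 (starved 96 h). In this RNA of whole roots, fewer cells of a type and less RNA per cell cannot be told apart. The part that the scaling of the control 96 h array, or the make-up of the roots, has in the results below was not tested.

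On each array 8 to 10 of the 45 genes lay below that array's 40th percentile and the others above it. The median gene stood at 80.7 and 83.2 at 48 h and at 117 and 79.3 at 96 h (control and starved), against medians over the whole array of 46.8 to 47.8. The lowest signal of any member was 1.73, for ndhF on the starved 48 h array. The highest was 1525, for psbM, a small photosystem II subunit, on the control 96 h array. These levels are not compared between genes, because each probe set has its own response.

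A probe set entered the test if it reached its array's 40th percentile, a signal of 29.4 to 30.4, on at least 2 of the 4 arrays. This left 13998 probe sets and 37 of the 45 members. Of the 37, 33 reached the percentile on all 4 arrays, and 0 passed through the 2 arrays of a single time alone. The 8 members not tested were psbA, psbN, petD, rpoB, ndhF, ndhH, ndhJ and ndhK. Among them was psbA, the gene of the D1 protein at the photosystem II reaction centre, at 24.0 and 25.95 at 48 h and at 41.5 and 30.1 at 96 h (control and starved). It reached the percentile on the control 96 h array alone. Another was ndhJ, for a subunit of the NDH complex, at 2.09, 2.45, 12.0 and 20.7 in the same order.

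**Figure D1:**
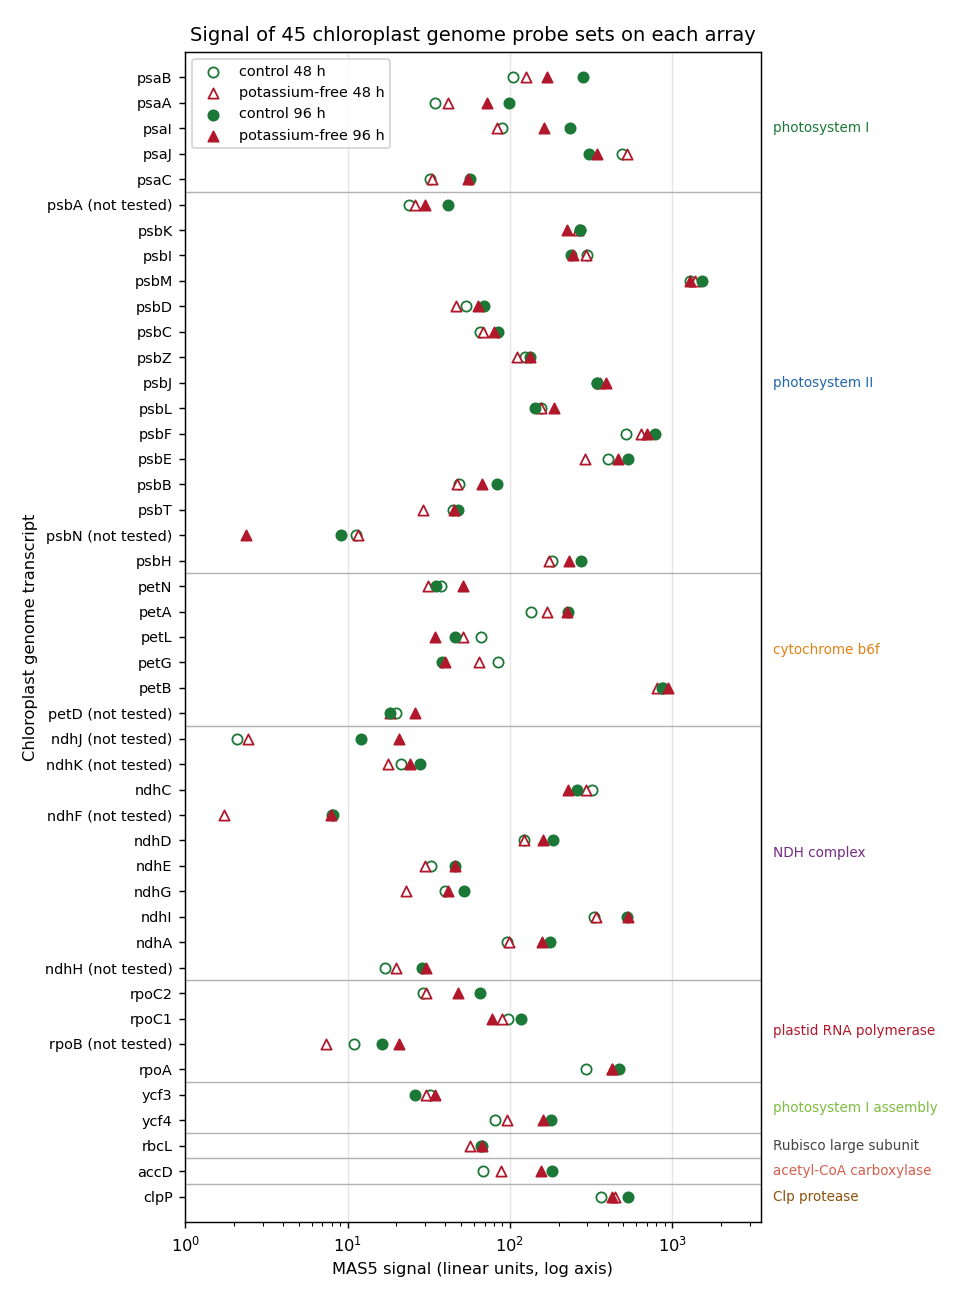
Signal of the 45 chloroplast genes on the 4 arrays, as MAS5 intensity on a log axis, with 1 point per gene and array and the genes grouped by role. The photosystem I genes apart from psaJ stand higher on both 96 h arrays than on both 48 h arrays, while psaJ, petG and petL stand lower.

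More chloroplast transcripts were higher than lower at 96 h, 31 of 45 in control roots and 35 of 45 in starved roots, against 48.2% and 49.9% of all tested probe sets. Of the 37 tested members, 12 passed limma's test of 96 h against 48 h after Benjamini-Hochberg adjustment over all 13998 probe sets, 10 higher and 2 lower. Over all tested probe sets, 7.35% passed, 4.11% higher and 3.24% lower, while 32.4% of the tested members passed. All 5 photosystem I genes were among the 12, though psaC kept its call under 1 of 11 alternative settings. The gene of the fatty acid synthesis enzyme subunit accD was among them too. Of 13 tested photosystem II genes 0 were, a count near the 7.35% of all tested probe sets. The 12 were psaA, psaB, psaC, psaI, accD, ycf4, petA, ndhA, ndhI and rpoC2, which rose, and psaJ and petG, which fell. A further 8 members had an unadjusted p under 0.05 and did not pass.

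The fit treats the arrays of both solutions at a time as a pair of samples, and nothing in the labels says that the 4 arrays came from more than 1 culture per group. With 1 residual degree of freedom, its p-values rest mostly on the spread that limma shares across all probe sets. All 12 calls were lost when no filter on low signals was used, which brought all 22746 probe sets into the fit. They were also lost when either 48 h array was left out together with the solution term. Without the control 96 h array 7 remained, and without the starved 96 h array the count was 10.

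All 4 arrays of a gene can also be set side by side without a model. Both 96 h arrays were above both 48 h arrays for 27 of the 45 genes and for 22 of the 37 tested, against 25.1% of all tested probe sets. Both were below for 6 of the 45 and for 5 of the 37, against 26.4% of all tested probe sets. For the other 12 of the 45 the times overlapped.

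Within each solution the difference between the times is a value without a test. In control roots the median over the 45 genes was 0.29 on the log2(signal + 16) scale, in starved roots 0.34, against -0.01 and 0.00 over all tested probe sets. A constant of 16 was added before the logarithm, so differences of low signals are understated. In control roots 5 genes were at least 2-fold higher at 96 h, psaA, psaB, psaI, ycf4 and accD, against 1.21% of tested probe sets. In starved roots 0 of the 45 were, against 1.56%. These counts depend on the added constant: with 1 in place of 16 they were 8 and 4, and with 64 the count in control roots was 1. The single genes spread from -0.89 to 1.31 in the control solution and from -0.59 to 0.99 without potassium. The 37 tested genes held a similar order in both solutions (r = 0.76 across genes, which share arrays and transcripts and are not replicates, and 0.59 over all tested probe sets).

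**Figure D2:**
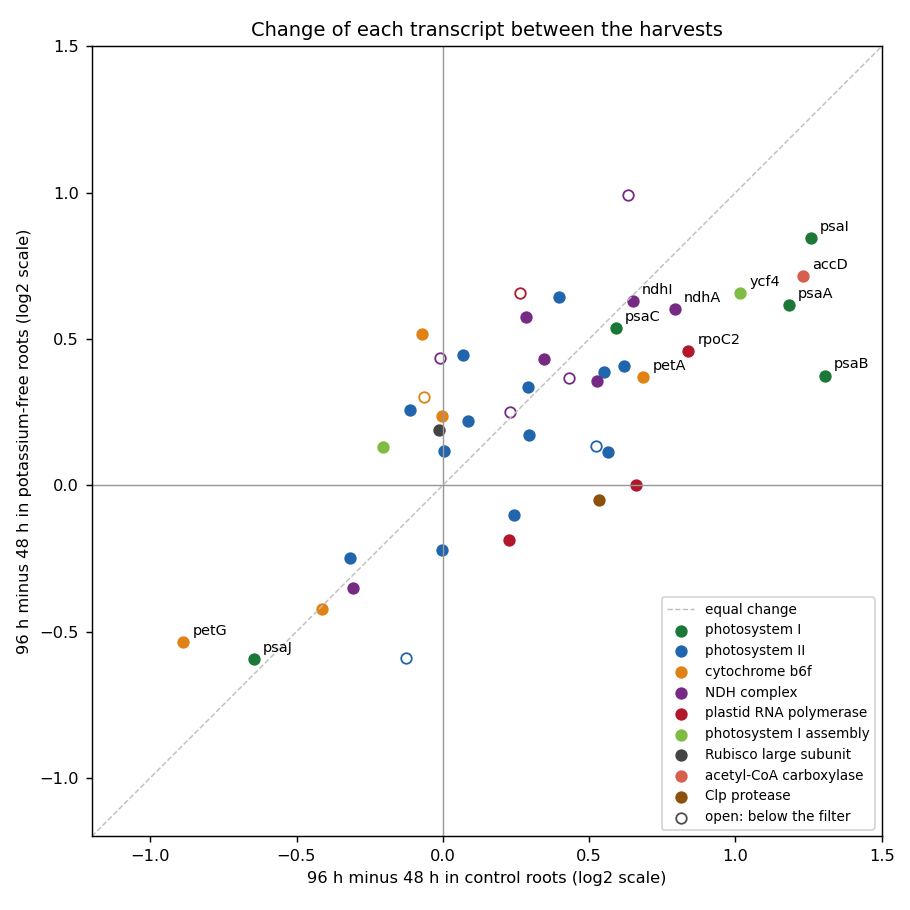
Difference between 96 h and 48 h in control roots (horizontal axis) and in starved roots (vertical axis) on the log2(signal + 16) scale, with 1 point per chloroplast gene and open points for genes below the filter. Most photosystem I genes lie to the right, at 0.59 to 1.31 in control roots and 0.38 to 0.84 in starved roots, and psaJ, petG and petL lie below 0 on both axes.

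Photosystem I takes electrons from plastocyanin to ferredoxin. Its reaction centre is the pair of large proteins PsaA and PsaB. The psaA signal at 48 h was 34.5 (control) and 41.8 (starved), and at 96 h it was 98.6 and 72.5. The psaB signal was 105, 126, 282 and 168 in the same order. For both genes the times did not overlap, and the control 96 h array was the highest. The mean rise was 0.90 ± 0.17 (SE; 1.86-fold, adjusted p = 0.00349, limma) for psaA and 0.84 ± 0.19 (1.79-fold, adjusted p = 0.0111, limma) for psaB. For psaB the rise was 1.31 in control and 0.38 in starved roots.

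The other 3 subunits went in different directions. PsaC carries the iron-sulfur clusters that pass electrons on, and its signal was 32.2 and 32.9 at 48 h and 56.7 and 55.0 at 96 h (control and starved). PsaI, a small membrane subunit, gave 88.8, 83.2, 234.5 and 162 in the same order. Its rise of 1.05 ± 0.16 (2.07-fold, adjusted p = 0.00046, limma) was the largest of the 37 tested genes. The rise of psaC was 0.56 ± 0.16 (1.48-fold, adjusted p = 0.0477, limma), close to the threshold of 0.05. By contrast psaJ, another small subunit, fell, from 491 and 524 at 48 h to 308 and 342 at 96 h. Its fall of 0.62 on the log2 scale (SE 0.15, 1.54-fold, adjusted p = 0.0178, limma) was of nearly equal size in control (-0.65) and starved roots (-0.59).

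Ycf3 and Ycf4 help to assemble photosystem I and are not part of the finished complex. For ycf4 the 48 h signals were 80.7 (control) and 96.0 (starved) and the 96 h signals 179.7 and 160.6, with no overlap between the times. It rose by 0.84 ± 0.15 (1.79-fold, adjusted p = 0.00264, limma). The ycf3 signal was 32.3, 30.3, 25.9 and 34.8, and the times overlapped. Its fitted difference was -0.04 ± 0.18.

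The cytochrome b6f complex links the photosystems. Of its 5 tested genes, 1 was called higher and 1 lower, against 4.11% and 3.24% of all tested probe sets. PetA is cytochrome f, and its signal was 135 and 169.8 at 48 h and 228 and 224 at 96 h (control and starved). The times did not overlap, and the rise was 0.53 ± 0.15 (1.44-fold, adjusted p = 0.0464, limma). The call of petA held under 1 of 12 alternative settings. PetG and PetL are small subunits at the edge of the complex. The petG signal fell from 84.6 and 64.8 to 38.4 and 39.8, a difference of -0.71 ± 0.16 (1.64-fold, adjusted p = 0.013, limma). The petL signal was 66.4 and 51.6 at 48 h and 45.9 and 34.4 at 96 h, without overlap of the times. Its difference of -0.42 ± 0.16 did not pass (adjusted p = 0.135, limma). The remaining tested genes were petB, for cytochrome b6, at 0.12 ± 0.16 and petN, for a small subunit, at 0.22 ± 0.18.

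The plastid NDH complex passes electrons from ferredoxin back to plastoquinone, in cyclic flow around photosystem I. Of its 10 genes, 8 stood higher on both 96 h arrays than on both 48 h arrays and 1, ndhC, stood lower on both. Among the 6 tested, 5 stood higher and ndhC lower, against 25.1% and 26.4% of all tested probe sets. Limma called 2 of the 6 higher and 0 lower, against 4.11% and 3.24%. The ndhA signal was 95.5 and 98.8 at 48 h and 177 and 158 at 96 h (control and starved), a rise of 0.70 ± 0.15 (1.62-fold, adjusted p = 0.00818, limma). The ndhI signal was 331, 338, 528 and 531, a rise of 0.64 ± 0.15 (1.56-fold, adjusted p = 0.015, limma). For ndhI the solutions gave nearly the same value at each time. ndhC did not pass at 322, 295, 257 and 228 (-0.33 ± 0.15, adjusted p = 0.216, limma), nor did ndhD, ndhE and ndhG, whose differences were 0.44, 0.39 and 0.43.

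Photosystem II splits water, and its genes were the largest group. Limma's test called 0 of its 13 tested genes, which is near the share of 7.35% over all tested probe sets. Of 13 tested genes, 3 had an unadjusted p under 0.05, psbB, psbE and psbH, all toward 96 h. PsbE is a subunit of cytochrome b559, and its signal was 401 and 291 at 48 h and 534 and 463 at 96 h (control and starved). Its difference of 0.52 ± 0.15 lay just short of the threshold (adjusted p = 0.0501, limma). PsbB is the chlorophyll-binding core antenna CP47, and its signal was 48.4, 47.0, 82.9 and 67.5 in the same order (0.51 ± 0.16, adjusted p = 0.0587, limma). The group median of the fitted difference was 0.23, against 0.84 for the 5 photosystem I genes and -0.01 for all tested probe sets. At the other end psbI, a small subunit, was at 300.5 and 293 at 48 h and at 238 and 244 at 96 h (-0.28 ± 0.15, adjusted p = 0.295, limma). The difference between the photosystem groups was not tested.

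The plastid-encoded RNA polymerase is built from the rpoA, rpoB, rpoC1 and rpoC2 products and nuclear sigma factors. Of 3 tested, rpoC2 alone was called higher, against 4.11% of all tested probe sets. Its signal was 29.4 and 30.6 at 48 h and 65.2 and 48.1 at 96 h (0.65 ± 0.17, 1.57-fold, adjusted p = 0.0298, limma). The control 48 h signal lay just below that array's 40th percentile, and the call held under 3 of 11 alternative settings. The rpoC1 signal was 97.7, 89.98, 117 and 77.2 (control and starved at 48 h, then at 96 h), with overlap of the times and a difference of 0.02 ± 0.16. The rpoA signal was 293, 428, 472 and 428 in the same order. Its difference of 0.33 ± 0.17 did not pass (adjusted p = 0.286, limma), and the starved signals of both times were nearly equal while the control 48 h array stood below the others.

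Of the genes outside the complexes named so far, accD alone passed. AccD is a subunit of the plastid acetyl-CoA carboxylase, which makes the building block for fatty acids in green and non-green plastids. Its 48 h signals were 68.2 (control) and 88.1 (starved), and its 96 h signals were 182 and 155. The rise was 0.97 ± 0.16 (1.96-fold, adjusted p = 0.00117, limma). The rbcL gene, for the large subunit of the carbon-fixing enzyme Rubisco, gave 67.3, 56.8, 66.5 and 67.1, with a difference of 0.09 ± 0.16. The clpP gene, for a proteolytic subunit of the Clp protease, gave 364, 443, 534 and 427 (0.24 ± 0.17). For rbcL and clpP the times overlapped.

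The differences were also read in gene order. Ordered as in TAIR10.1, the mean difference between the times of a tested chloroplast probe set correlated with that of its neighbour at r = 0.45 over 57 pairs. These points share transcripts, and the value is a description. The unit of psaI, ycf4, cemA and petA, which is transcribed as a whole, had all 4 genes called higher. The accD gene next to it rose as well, so 5 consecutive genes passed, with rises of 0.53 to 1.05. Of these, petA kept its call under 1 of 12 alternative settings. Next to petA in gene order lies the unit of psbJ, psbL, psbF and psbE, with 0 of 4 called and differences of 0.06 to 0.52.

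The unit from ndhH to ndhD, which also holds psaC, had differences of 1 sign. All 7 of its genes stood higher at 96 h in both solutions, by 0.39 to 0.70, and 3 of the 6 tested passed, ndhA, ndhI and psaC. In the psaA, psaB and rps14 unit all 3 were higher in both solutions and both tested genes passed. The petL, petG and psaJ unit went the other way, with all 3 lower in both solutions, by 0.42 to 0.71, and petG and psaJ called. These were the 2 members called lower.

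Other units held 0 or 1 call. The psbB, psbT, psbH, petB and petD unit had mean differences of 0.12 to 0.51 with 0 of 4 tested called. The psbD, psbC and psbZ genes were at 0.15 to 0.31 with 0 called, and psbK and psbI at -0.28 to -0.11 with 0 called. The rpoB, rpoC1 and rpoC2 unit spanned 0.02 to 0.65 with rpoC2 called. The largest span within a unit was that of ndhC, ndhK and ndhJ, from -0.33 for ndhC to 0.81 for ndhJ, whose signals were among the lowest.

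**Figure D3:**
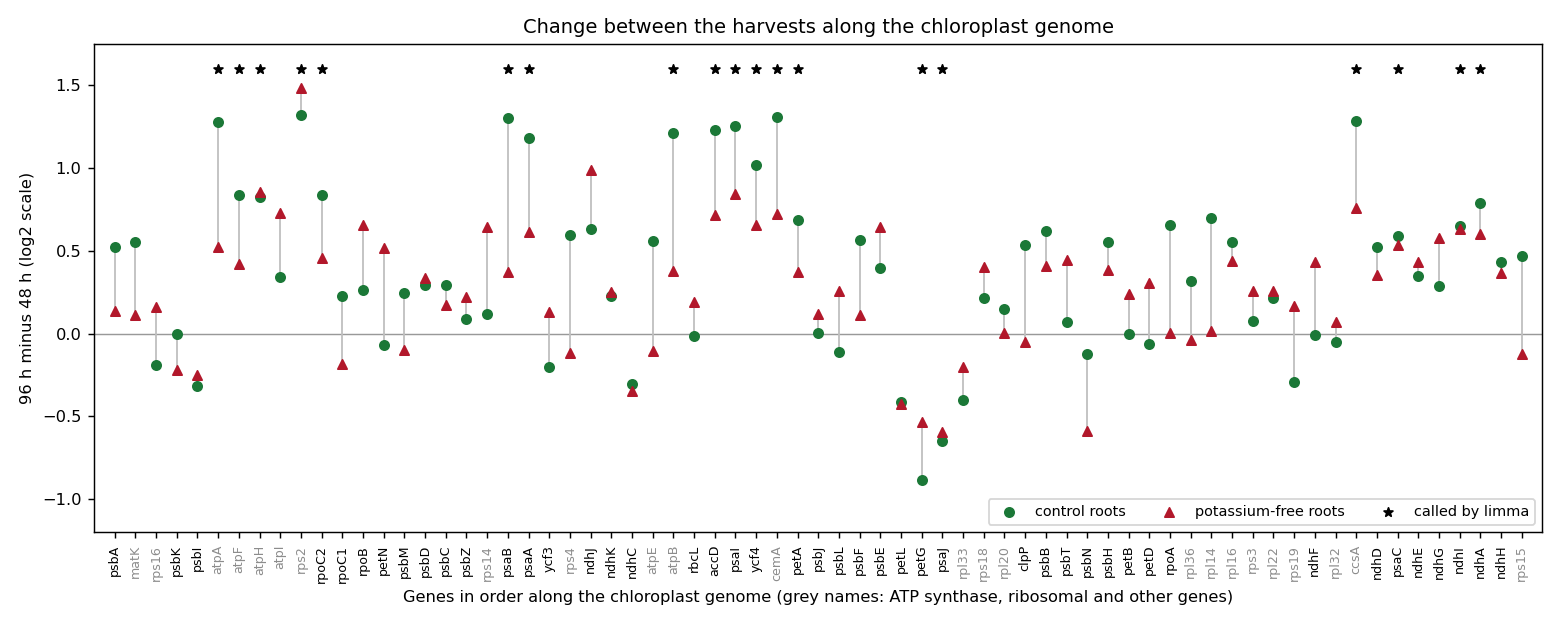
Difference between 96 h and 48 h on the log2(signal + 16) scale (vertical axis) in control roots (circles) and starved roots (triangles), for the chloroplast genes in their order on the genome (horizontal axis, rank and not distance). Stars mark genes called by limma. The run from accD to petA lies above 0 in both solutions, and petL, petG and psaJ lie below 0 in both.

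Starved against control, 0 of the 37 tested members passed, against 0.193% of all 13998 probe sets (27 calls) in the same limma fit. The smallest adjusted p of a member was 0.617 (limma), for ndhG, which was also the only member with an unadjusted p under 0.05. The NDH subunit gene ndhG gave 40.1 (control) and 22.8 (starved) at 48 h, then 52.3 and 41.7 at 96 h. It was lower with starvation at both times, by 0.53 and 0.24 on the log2 scale, with a fitted difference of -0.39 ± 0.17. Differences of 2-fold planted in simulated arrays with the spread of these data were recovered in 99.5% of 200 probe sets for starvation. That simulation shares the model's own assumptions, and smaller differences were not simulated.

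Within each time the differences were small. At 48 h they ran from -0.53 to 0.52 with a median of -0.03 over the 45 genes, against -0.01 over all tested probe sets. At 96 h they ran from -0.69 to 0.40 with a median of -0.12, against 0.00. A 2-fold difference was reached by 0 of 45 at either time, against 0.143% of tested probe sets at 48 h and 0.85% at 96 h. At 96 h the starved array was the lower for 31 of the 45 genes (68.9%), against 50.1% of all tested probe sets. At 48 h it was the lower for 25 (55.6%), near the 52.7% of all tested probe sets. Starved roots were lower at both times for 16 genes, higher at both for 5 and opposite for 24, while the shares over all tested probe sets were 26.7% lower at both times and 23.9% higher at both.

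At 96 h the genes with the widest rises in the control solution had lower signals without potassium. For psaB the starved signal was lower by 0.69 at 96 h and higher by 0.24 at 48 h. For psaI the values were -0.49 and -0.08, and for psaA -0.37 and 0.19. The gaps at 96 h were smaller for accD (-0.21, and 0.31 at 48 h) and ycf4 (-0.15, and 0.21 at 48 h). The median over the 45 genes was -0.12 at 96 h. These differences share the control 96 h array with the rise in control roots, so a high or low value of that array enters both. With 1 array per group the difference between times in the effect of starvation has no test. The photosystem I median was -0.37 at 96 h and 0.09 at 48 h.

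Other members with the widest fitted starvation differences in their groups were psbE, rpoC1, rpoA and psbL. None of them passed. The psbE difference was -0.32 ± 0.15 (adjusted p = 0.679, limma), and starved roots were lower at both times. The rpoC1 difference was -0.31 ± 0.16 (adjusted p = 0.721, limma), with the starved 96 h array lowest at 77.2. The rpoA difference was 0.19 ± 0.17, made of 0.52 at 48 h and -0.14 at 96 h. For psbL, a small photosystem II subunit, the signal was 156, 155, 143 and 188 (control and starved at 48 h, then at 96 h), a difference of 0.18 ± 0.15 (adjusted p = 0.958, limma).

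**Figure D4:**
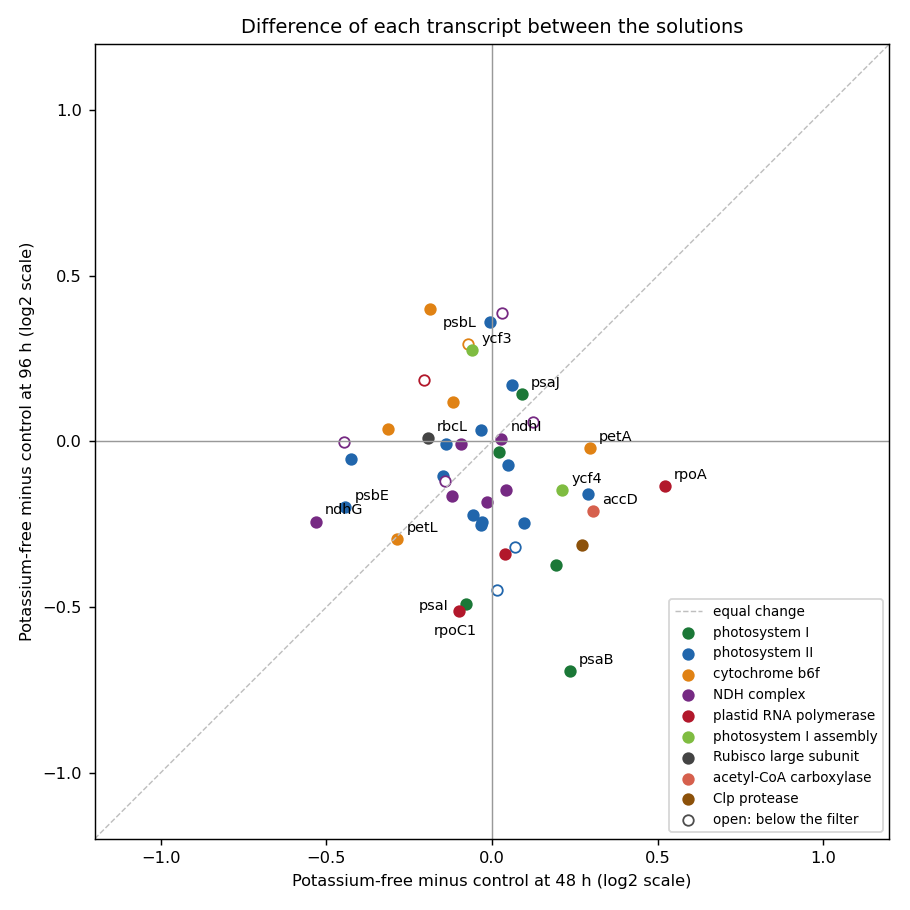
Difference between starved and control roots on the log2(signal + 16) scale at 48 h (horizontal axis) and at 96 h (vertical axis), with 1 point per chloroplast gene and open points for genes below the filter. No point reaches 1 or -1 on either axis, and the lowest at 96 h is psaB, at -0.69.

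The remaining single-gene chloroplast probe sets, which the name rule left out, gave calls in the same direction. Of 24, 21 were tested, and 7 were called higher and 0 lower at 96 h, against 4.11% and 3.24% of tested probe sets. Starvation called 0 of the 21, which is near the share of 0.193% over all tested probe sets. Among the 7 were 4 of 5 tested genes of the ATP synthase, which makes ATP in the thylakoid. They held 1 of 6 tested genes of the small ribosomal subunit and 0 of 7 of the large. The atpB signal was 394 (control) and 551 (starved) at 48 h, then 932 and 722 at 96 h. The exception among the ribosomal genes, rps2, gave 74.5, 72.9, 210.0 and 232, a rise of 1.40 ± 0.15. It lies next to the ATP synthase genes atpI, atpH, atpF and atpA on the genome. The ccsA gene, for a factor of cytochrome c assembly, lies next to the ndhH to ndhD unit and rose by 1.02 ± 0.16, and cemA, an envelope membrane protein gene, rose by 1.02 ± 0.16.

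The chloroplast probe sets that match both copies of a gene of the inverted repeat were kept apart, since the signals of the copies cannot be split. The ndhB probe set gave 21.1 and 20.9 at 48 h and 31.4 and 34.5 at 96 h (control and starved). The ycf1 probe set gave 183, 177, 217 and 214, and ycf2 gave 9.96, 10.96, 10.5 and 13.7. For ndhB and ycf1 both 96 h arrays were above both 48 h arrays, as for 25.1% of all tested probe sets, and neither passed limma's test. The ndhB probe set passed the filter through its 96 h signals alone, so its order of the times is no support for a difference.

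Mitochondrial genes are a second set of organelle transcripts without stable poly(A) tails. Of 12 probe sets in the same range, 6 were tested. Of the 6, ccb382, ccb452 and nad9 were called higher at 96 h, against 4.11% of tested probe sets. Of these, nad9 passed the filter through its 96 h signals alone, so its call is no support for a difference. The ccb382 signal, from a gene of cytochrome c assembly, was 101 and 115 at 48 h and 229.5 and 223 at 96 h (control and starved). In control roots 11 of the 12 were higher at 96 h, with a median of 0.47, against 48.2% of all tested probe sets. In starved roots 5 of the 12 were, with a median of -0.03, against 49.9%. These values include the low signals below the filter. Over the 6 tested the medians were 0.65 (control) and 0.48 (starved), with nad9 and ccb206 passing the filter through their 96 h signals alone. Starvation called 0 of the 6, against 0.193% of all tested probe sets.

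Of a list of 52 nuclear genes for photosynthesis, 9 were matched by locus to a single-gene probe set, and all 9 were tested. The match may have missed other probe sets of the list, so the 9 do not stand for all of it. Between the times 4 of the 9 were called higher, LHCB4.2, PSBW, PSBY and RCA, and 0 lower, against 4.11% and 3.24% of all tested probe sets. RCA, the activase of Rubisco, gave 134 (control) and 128 (starved) at 48 h, then 237 and 180 at 96 h. PSBW, a small photosystem II subunit, gave 104, 91.6, 165 and 159 in the same order. For both genes the times did not overlap. The antenna gene LHCB4.1 did not pass, at 183, 218, 336 and 198, nor did ATPC1, the gamma subunit of the ATP synthase, at 115, 151, 138 and 164. The summed signal of the 9 was 808, 882, 1311 and 1079, none was at 0, and their part in the chloroplast genome result was not tested.

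The list of phage-type polymerases held 1 gene matched to a single-gene probe set, AT5G15700, the polymerase that serves both plastids and mitochondria (RPOTmp). Its signal was 6.92 (control) and 6.90 (starved) at 48 h, below the 40th percentile, and 30.7 and 36.0 at 96 h. It passed the filter through its 96 h signals alone, so its fitted difference of 1.105 ± 0.20 (adjusted p = 0.00262, limma) is no support for a rise. Of 6 sigma factors, 12 polymerase-associated proteins, 5 RNA turnover factors and 3 greening regulators, 0 were matched by locus to a single-gene probe set. The match may have missed their probe sets, so the array may still measure these genes. For 4 nuclear NDH subunits 2 were matched and 0 tested. Of the 5 root markers measured, root hair genes XTH26, EXPA7 and EXPA18 were called lower at 96 h, against 3.24% of tested probe sets. Starvation called 0 of the 5, against 0.193%. XTH26 passed the filter through its 48 h signals alone, so its call is no support for a difference. The EXPA7 signal, for an expansin, was 132 and 201 at 48 h and 84.5 and 109 at 96 h (control and starved).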

How the data were processed

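The deposited values are array intensity on a linear scale, made with MAS5 per the submitters' processing notes; no other step is recorded in the labels. Each array's trimmed mean (2% at each end) was near 100, as tested on the values. Gene names came from GEO's platform table. The 64 control probe sets were set aside, leaving 22746. Values were taken as log2(value + 16), and probe sets under the 40th percentile on more than 2 of 4 arrays (8748) were left out. limma 3.58.1 in R 4.3.3 fitted solution and time over the 13998 left, with trended variance (prior degrees of freedom 14.94) and Benjamini-Hochberg adjustment at 0.05. Simulated data with 200 changed probe sets tested the model: 2-fold changes were recovered at 99.5% for time, with 5.69% of calls false. Precision is limited by the number of arrays, 1 per group. Members and gene lists were chosen with earlier results of these data known. Members are named where called, where at an extreme of their role group for either effect, or where at least 2-fold in any contrast; other members and chloroplast or mitochondrial genes with values were picked after their values were seen. From each gene list up to 4 genes were named by mean signal; LHCB4.2, PSBY and XTH26 were added because they passed the test. Alternatives changed the pseudocount, filter, scaling, model terms and arrays used. No sequences are shown.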

Additional observations from a re-analysis of the deposited data

Results flagged for a closer look

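The clpP gene, for a proteolytic subunit of the Clp protease, stood higher in starved than in control roots at 48 h, by 0.27 on the log2(signal + 16) scale, and lower at 96 h, with a difference of -0.31. The 2 differences have opposite signs, as for 24 of the 45 genes and for 6916 of the 13998 tested probe sets. Each difference rests on 1 array per solution, and the difference between the 2 was not tested. A control probe set for 25S ribosomal RNA, outside the measurements reported above, read 795.4 on the starved 48 h array, against 58.7 on the control 48 h array, 73.1 on the control 96 h array and 60.8 on the starved 96 h array.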

How the results depend on the processing

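The count of members called for starvation was 0 under every alternative run (other pseudocounts, filters, scalings, no time term and each array left out). The count called between the times was 12 as reported, 9 and 13 with pseudocounts of 1 and 64, 8 after raising the filter to the 60th percentile, and 9 to 11 under quantile, equal-median and cyclic loess scaling. It was 0 with no filter and 6 without the solution term. Leaving out 1 array, also without the solution term, gave 0 to 10. The count was 0 with either 48 h array removed, 7 when the control array at 96 h was removed and 10 when its starved partner was. The calls held least often were psaC and petA (1 alternative each) and rpoC2 (3). Members at least 2-fold between the times in control roots were 5 as reported, 8 with a pseudocount of 1 and 1 with 64. With a pseudocount of 1 they were 4 in starved roots, and 1 each for starvation at 48 h and at 96 h, against 0 as reported. Medians moved by less than the residual spread of 0.156, and no result changed direction. No paired analysis was possible because every array is numbered replicate 1, so the groups share fewer than 2 numbers. With 1 array per group, values within a time carry no error.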
